A study of Homo sapiens with 6 samples.

Results

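The epidermal growth factor receptor (EGFR) family was examined as 10 genes out of the 17039 in the deposited expression table. The genes were chosen by name: the receptors EGFR, ERBB2 and ERBB3, the ligands HBEGF, AREG, EREG, TGFA, BTC and NRG1, and the receptor inhibitor ERRFI1. All 10 were listed in the table and all 10 were high enough to be tested. RNA sequencing was available for 6 libraries, 3 of MDA-MB-231 cells and 3 of 231-BR cells. MDA-MB-231 is an established human triple-negative breast cancer cell line, and 231-BR is a variant of it that was selected for growth in the brain. Both were cultured in DMEM with serum, penicillin and streptomycin, but the medium of 231-BR cells also held the antibiotic G418 and that of MDA-MB-231 cells did not, so the line and the drug cannot be told apart. The 231-BR cells were a gift and the MDA-MB-231 cells were purchased from ATCC, so the source also goes with the line. The libraries of a line were parallel replicates that are not stated to be separate cultures, so the p-values measure the spread between libraries, which may be technical.

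EGFR and its relatives are cell-surface tyrosine kinases that pair up when a ligand binds and then signal through the RAS-ERK and PI3K-AKT pathways. EGF, TGFA, AREG and EPGN bind EGFR, and HBEGF, EREG and BTC bind EGFR and ERBB4. The neuregulins bind ERBB4, and some of them, such as NRG1, also bind ERBB3. ERBB2 has no known ligand of its own and serves as a partner. The ligands are made as membrane proteins and are released by proteases such as ADAM17. In breast cancer ERBB2 is known as the HER2 oncogene, and EGFR is often expressed in tumors that lack HER2 amplification and the hormone receptors.

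In brief, 231-BR cells had more mRNA of the receptors EGFR, ERBB2 and ERBB3 and of the ligands EREG, AREG and BTC, and less of the ligands HBEGF and TGFA. ERBB3 and BTC were under 1 FPKM in every library, and the call of ERBB3 was lost with quantile normalization. EREG had the largest fold change, from 0.307 ± 0.031 FPKM (SD, n = 3) in MDA-MB-231 cells to 32.2 ± 0.289 FPKM (SD, n = 3) in 231-BR cells. FPKM counts sequenced fragments relative to the length of the transcript and the size of the library, so levels of different genes can be set side by side. The log2 fold changes below are 231-BR minus MDA-MB-231 on the log2(FPKM + 0.1) scale, which understates the change of genes with low FPKM.

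The sequences upstream of EREG, AREG and HBEGF are shown because these are the ligands with the largest differences in FPKM between the lines. Each is the 250 bases before the annotated start, in RefSeq on GRCh38.p14, 5′ to 3′ in the direction of the gene. EREG lies on the plus strand of chromosome 4 (chr4:74364895-74365144), AREG on the plus strand of chromosome 4 (chr4:74444886-74445135) and HBEGF on the minus strand of chromosome 5 (chr5:140346604-140346853). Capitals mark matches, on either strand, to any of 5 motifs: the TATA box (TATAAA), the cyclic AMP response element or CRE (TGACGTCA), the AP-1 site (TGACTCA), the GC box (GGGCGG) and the CCAAT box (CCAAT).
EREG: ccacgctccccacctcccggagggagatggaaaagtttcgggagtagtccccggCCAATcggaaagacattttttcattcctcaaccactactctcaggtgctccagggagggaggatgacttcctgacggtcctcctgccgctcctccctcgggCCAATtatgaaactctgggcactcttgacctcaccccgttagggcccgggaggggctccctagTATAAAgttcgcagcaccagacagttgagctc
AREG: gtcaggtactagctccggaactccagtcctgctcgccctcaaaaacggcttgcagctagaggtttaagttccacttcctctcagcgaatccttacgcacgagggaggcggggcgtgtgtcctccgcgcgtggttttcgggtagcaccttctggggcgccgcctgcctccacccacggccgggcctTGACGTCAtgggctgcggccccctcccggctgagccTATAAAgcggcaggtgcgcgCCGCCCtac
HBEGF: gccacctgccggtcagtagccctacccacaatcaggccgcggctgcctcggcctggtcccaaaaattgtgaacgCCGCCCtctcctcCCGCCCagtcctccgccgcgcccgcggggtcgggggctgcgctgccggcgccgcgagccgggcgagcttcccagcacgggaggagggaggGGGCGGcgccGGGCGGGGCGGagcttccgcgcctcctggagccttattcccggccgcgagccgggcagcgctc

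EREG and AREG both had a TATA box close to the start, from base -32 to -27 in EREG and from -29 to -24 in AREG, where -1 is the base before the start. Of all 35116 promoter windows of the table, 10.7% held these letters. AREG also had a CRE from base -65 to -58, which 1.65% of the windows held, and a GC box on the other strand. EREG had 2 CCAAT boxes, which 32.0% of the windows held, and neither a CRE nor a GC box. HBEGF had 5 GC boxes, 2 of them sharing 1 base, and no TATA box, and 42.6% of the windows held a GC box. The GC content was 58.0% for EREG, 65.2% for AREG and 76.4% for HBEGF. The AP-1 letters, held by 4.20% of the windows, were in none of the 3. Windows of 8 of the 10 genes were searched, since ERBB3 had no window and NRG1, on chromosome 8, was left out of the search. Of the other genes searched, EGFR, TGFA and ERRFI1 had a GC box in at least 1 window and ERBB2 and ERRFI1 a CCAAT box. A second window of EGFR had 2 TATA boxes and 2 AP-1 sites, and BTC had none of the motifs. These matches describe the sequence and do not show that a factor binds there.

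In the tests over 13465 genes, 7 of the 10 family genes were significantly higher in 231-BR cells, where 44.4% of all genes tested were, and 2 were significantly lower, where 32.9% were. For 9 of the 10 genes no library of one line fell within the range of the other, which also held for 78.4% of all genes tested. More than 3 in 4 genes therefore differed between the lines by these criteria, and the sizes of the changes are given beside the calls. The study's criteria for differentially expressed genes (DEGs), read here as an adjusted p under 0.05, a log2 fold change above 1 or below -1 and no less than 1 FPKM on average in each line, were met by EGFR and AREG as higher, and by HBEGF as lower. Among all genes 4.68% were higher DEGs and 1.77% lower DEGs. With at least 1 FPKM required in either line, EREG joined them, giving 3 higher and 1 lower, against 8.07% and 2.9% of all genes. The study tested with DESeq2, while here limma was fitted to FPKM without further scaling. Calls near the limits can therefore differ from the study's. Over the 10 genes the log2 fold change had a median of 1.07, and over all genes tested a median of 0.08.

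**Figure D1:**
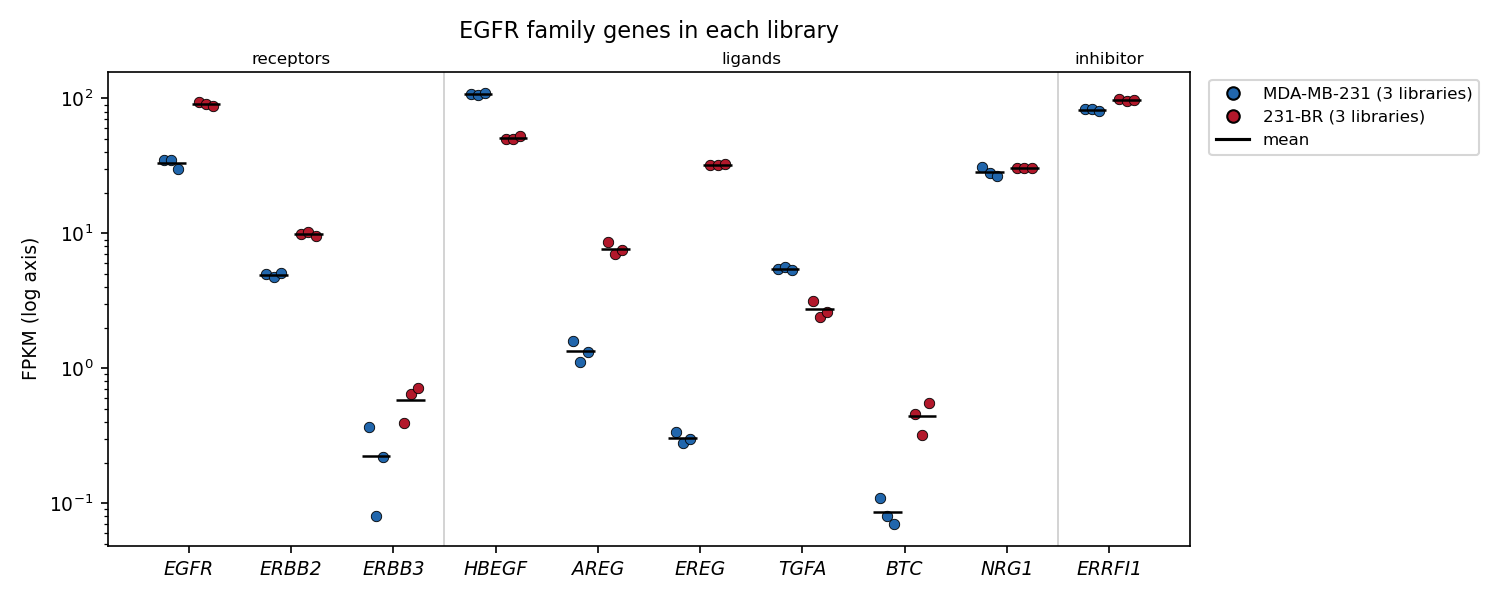
FPKM of the 10 genes on a log axis, with 1 point for each library of MDA-MB-231 cells (blue) and 231-BR cells (red) and a line at the mean of each group. The points of the lines are apart for every gene but NRG1, though for ERBB3 only just (0.39 against 0.37 FPKM at the closest). EREG has the widest gap, from 0.307 to 32.2 FPKM on average.

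Among the receptors, EGFR was by far the most abundant in both lines. It had 94.14, 91.21 and 88.11 FPKM in the 231-BR libraries and 34.93, 35.08 and 29.97 FPKM in the MDA-MB-231 libraries. Every 231-BR library was thus well above every MDA-MB-231 library. The mean was 91.2 ± 3.02 FPKM (SD, n = 3) against 33.3 ± 2.91 FPKM (SD, n = 3), a ratio of 2.74. The log2 fold change was 1.45 (SE 0.056, 95% confidence interval 1.33 to 1.58, limma adjusted p = 6.5e-09). EGFR was among the hub genes that the study chose from the DEGs of these same libraries, so its difference is not independent of that choice.

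ERBB2, the partner receptor with no ligand of its own, had 9.81, 10.23 and 9.61 FPKM in 231-BR cells and 5.02, 4.75 and 5.08 FPKM in MDA-MB-231 cells. All 3 libraries of 231-BR were higher, and the mean of 9.88 ± 0.316 FPKM (SD, n = 3) was 2.0 times the mean of 4.95 ± 0.176 FPKM (SD, n = 3). Its log2 fold change of 0.98 (SE 0.049, limma adjusted p = 4.0e-08) was just below the DEG limit of 1, so that ERBB2 was significant but no DEG.

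ERBB3, a receptor for neuregulins with a weak kinase of its own, was near the bottom of the range. It had 0.39, 0.64 and 0.72 FPKM in 231-BR cells and 0.37, 0.08 and 0.22 FPKM in MDA-MB-231 cells. The lowest 231-BR library was only just above the highest MDA-MB-231 library. The log2 fold change of 1.15 had a wide confidence interval, from 0.42 to 1.89 (limma adjusted p = 0.0086), and it ran from 0.37 to 1.53 between pseudocounts of 1 and 0.01. The call was lost with quantile normalization (0.76, adjusted p = 0.058). ERBB4, the remaining receptor and the other one that binds neuregulins, was listed at 0.02, 0.01 and 0.01 FPKM in 231-BR cells and at 0.01, 0 and 0 FPKM in MDA-MB-231 cells, and was too low to be tested.

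The FPKM summed over the 4 receptors was 101.6 ± 2.98 (SD, n = 3) in 231-BR cells and 38.5 ± 2.81 (SD, n = 3) in MDA-MB-231 cells. EGFR made up 89.7% ± 0.461 (SD, n = 3) and 86.5% ± 1.47 (SD, n = 3) of these sums, and ERBB2 9.73% ± 0.312 and 12.9% ± 1.32 (SD, n = 3 each). The receptor sum was thus mostly EGFR in both lines.

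Among the ligands of EGFR, EREG (epiregulin) showed the largest fold change, while HBEGF differed more in FPKM. Its level was 31.96, 32.05 and 32.50 FPKM in 231-BR cells and 0.34, 0.28 and 0.30 FPKM in MDA-MB-231 cells. It was under 1 FPKM in every MDA-MB-231 library and the fourth most abundant of the 10 genes in 231-BR cells. The ratio of the means was 104.9, and the log2 fold change was 6.31 (SE 0.069, 95% confidence interval 6.16 to 6.47, limma adjusted p = 3.0e-12). Because EREG was so low in MDA-MB-231 cells, the log2 fold change depended on the pseudocount, from 4.67 with 1 FPKM added to 6.67 with 0.01 FPKM added.

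AREG (amphiregulin), which binds EGFR alone, had 8.57, 7.06 and 7.50 FPKM in 231-BR cells and 1.59, 1.12 and 1.32 FPKM in MDA-MB-231 cells. The means were 7.71 ± 0.777 FPKM (SD, n = 3) and 1.34 ± 0.236 FPKM (SD, n = 3), a ratio of 5.74. The log2 fold change was 2.44 (SE 0.118, 95% confidence interval 2.18 to 2.71, limma adjusted p = 3.0e-08). AREG was therefore higher in every 231-BR library, and well below EREG there. BTC (betacellulin) was low in both lines, at 0.46, 0.32 and 0.55 FPKM in 231-BR cells and 0.11, 0.08 and 0.07 FPKM in MDA-MB-231 cells. It was also higher in every 231-BR library (log2 fold change 1.52, SE 0.203, limma adjusted p = 5.9e-05), and its log2 fold change ran from 0.41 to 2.22 between pseudocounts of 1 and 0.01.

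HBEGF, the heparin-binding EGF-like growth factor, went the other way. It had 49.75, 49.89 and 52.30 FPKM in 231-BR cells and 108.23, 106.57 and 109.49 FPKM in MDA-MB-231 cells, where it was the most abundant of the 10 genes. Each MDA-MB-231 library was thus well above any 231-BR library. The means were 50.6 ± 1.43 FPKM (SD, n = 3) and 108.1 ± 1.46 FPKM (SD, n = 3), so that MDA-MB-231 was 2.13 times as high. The log2 fold change was -1.09 (SE 0.027, 95% confidence interval -1.15 to -1.03, limma adjusted p = 2.8e-10).

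TGFA, transforming growth factor alpha, was also lower in 231-BR cells. Its level was 3.18, 2.42 and 2.63 FPKM in the 231-BR libraries and 5.44, 5.63 and 5.37 FPKM in the MDA-MB-231 libraries, with no overlap. The means were 2.74 ± 0.392 FPKM (SD, n = 3) and 5.48 ± 0.135 FPKM (SD, n = 3). The log2 fold change of -0.98 (SE 0.092, limma adjusted p = 4.1e-06) left it just outside the DEGs. TGFA joined them without replicate 1 of 231-BR (-1.09) and with median-of-ratios scaling (-1.06). It also did so with quantile normalization (-1.24) and with a pseudocount of 0.01 (-1.005).

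NRG1 (neuregulin 1), a ligand of ERBB3 and ERBB4, did not pass the test. It had 30.74, 30.43 and 30.43 FPKM in 231-BR cells and 30.78, 28.13 and 26.44 FPKM in MDA-MB-231 cells. The groups overlapped, since the highest of all 6 values was in MDA-MB-231 cells. The log2 fold change was 0.10 (95% confidence interval -0.0044 to 0.21, limma adjusted p = 0.074). Without replicate 1 of MDA-MB-231 it was 0.16 (adjusted p = 0.0025), so 1 library decided the call, and the effect was small either way.

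ERRFI1 (MIG6), which binds the EGFR kinase and blocks it, had 98.44, 95.02 and 97.82 FPKM in 231-BR cells and 83.96, 83.07 and 80.19 FPKM in MDA-MB-231 cells. All 231-BR libraries were higher, but the ratio of the means was only 1.18 (log2 fold change 0.24, SE 0.026, 95% confidence interval 0.18 to 0.30, limma adjusted p = 1.6e-05). The FPKM of EGFR over that of ERRFI1 was 0.956, 0.960 and 0.901 in 231-BR cells and 0.416, 0.422 and 0.374 in MDA-MB-231 cells. The receptor was thus about as abundant as its inhibitor in 231-BR cells and well below it in MDA-MB-231 cells, by mRNA.

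**Figure D2:**
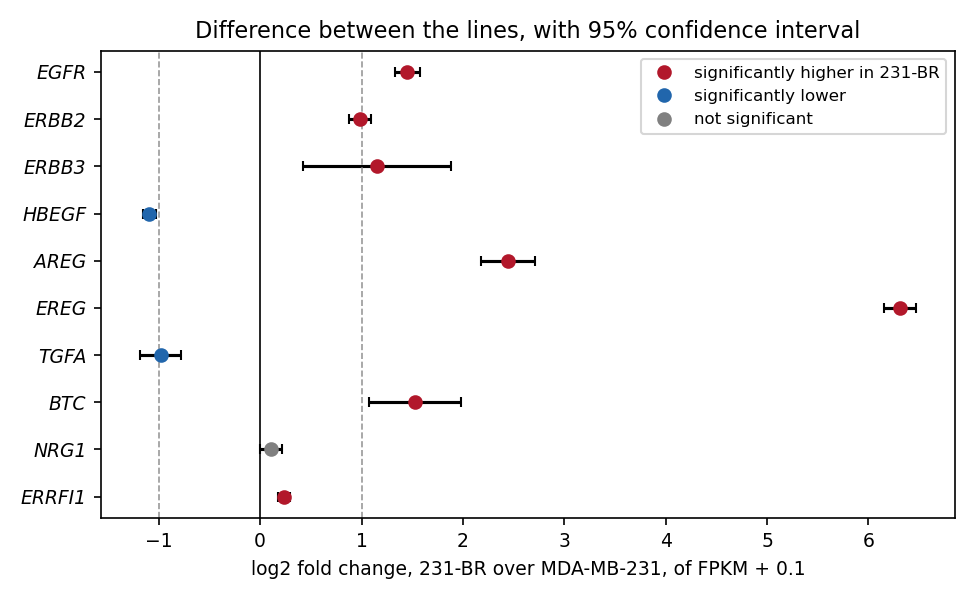
Log2 fold change of each gene (point) with its 95% confidence interval (bar), in red where significantly higher in 231-BR cells, in blue where lower and in gray where not significant, with dashed lines at the DEG limits of 1 and -1. EREG at 6.31 stands far from the others, and ERBB2 and TGFA lie at the limits, at 0.98 and -0.98.

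The order of the levels differed between the lines. In 231-BR cells it was ERRFI1, EGFR, HBEGF, EREG, NRG1, ERBB2, AREG, TGFA, ERBB3 and BTC from high to low, and only the neighbors ERBB3 and BTC overlapped in their library values. In MDA-MB-231 cells it was HBEGF, ERRFI1, EGFR, NRG1, TGFA, ERBB2, AREG, EREG, ERBB3 and BTC. There, EGFR overlapped with NRG1, EREG with ERBB3, and ERBB3 with BTC. HBEGF was the first in MDA-MB-231 cells and the third in 231-BR cells, and EREG was the eighth and the fourth.

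The makeup of the ligand pool is given over the 11 ligands of the family, which adds EGF, EPGN, NRG2, NRG3 and NRG4 to the 6 chosen ones. HBEGF made up 74.0% ± 1.26 (SD, n = 3) of the summed FPKM in MDA-MB-231 cells and 39.8% ± 0.772 (SD, n = 3) in 231-BR cells. EREG made up 0.210% ± 0.017 (SD, n = 3) and 25.3% ± 0.304 (SD, n = 3). The share of AREG was 0.918% ± 0.146 and 6.05% ± 0.576, and that of TGFA was 3.75% ± 0.136 and 2.15% ± 0.296 (SD, n = 3 each). NRG1 held a share of 19.5% ± 1.26 in MDA-MB-231 cells and of 24.0% ± 0.384 in 231-BR cells (SD, n = 3 each). The pool was therefore dominated by HBEGF in MDA-MB-231 cells and divided between HBEGF, EREG and NRG1 in 231-BR cells. The sum itself was 146.1 ± 2.43 FPKM in MDA-MB-231 cells and 127.4 ± 2.03 FPKM in 231-BR cells (SD, n = 3 each). These are shares of mRNA, and neither ligand protein nor its release was measured.

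**Figure D3:**
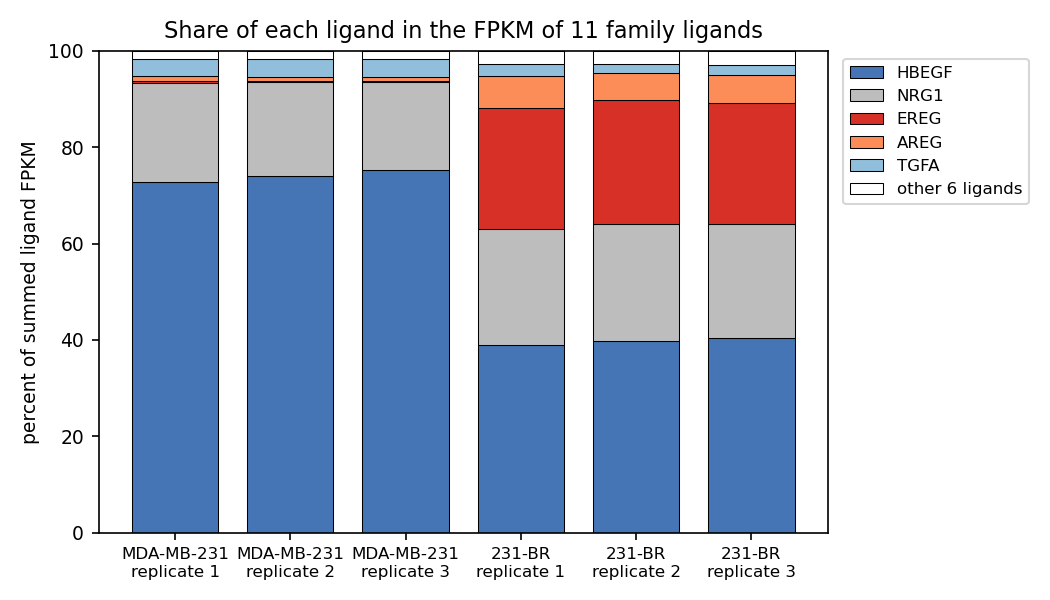
Percent of the summed FPKM of 11 EGFR family ligands taken by each ligand, with 1 stacked bar for each library. HBEGF (dark blue) takes 74.0% on average in MDA-MB-231 cells and 39.8% in 231-BR cells, and EREG (red) takes 0.210% and 25.3%.

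Over the 7 ligands that bind EGFR, without the neuregulins, HBEGF made up 93.6% ± 0.204 (SD, n = 3) of the sum in MDA-MB-231 cells and 53.9% ± 0.913 (SD, n = 3) in 231-BR cells. EREG held 0.266% ± 0.025 and 34.2% ± 0.502 of this pool (SD, n = 3 each). HBEGF had 318.3, 380.6 and 365.0 times the FPKM of EREG in the MDA-MB-231 libraries, and 1.56, 1.56 and 1.61 times in the 231-BR libraries. The pool summed to 115.5 ± 1.49 FPKM in MDA-MB-231 cells and 94.0 ± 1.86 FPKM in 231-BR cells (SD, n = 3 each), so it was smaller in the line with more EGFR. The FPKM of EGFR over that of this pool was 0.289 ± 0.028 in MDA-MB-231 cells and 0.970 ± 0.044 in 231-BR cells (SD, n = 3 each).

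The remaining 6 genes of the family were low. Of the 4 that could be tested, EGF and NRG2 were significantly higher in 231-BR cells, and EPGN and NRG4 did not pass the test. With median-of-ratios scaling 3 could be tested, since EGF fell under the filter of 0.1 FPKM, and 1 was significantly higher. With quantile normalization 1 of the 4 was significantly higher and 1 lower. There the calls of EGF and NRG2 thus did not both hold. EGF, the founding ligand, was at 0.153 ± 0.025 and 0.050 ± 0.010 FPKM (SD, n = 3 each; log2 fold change 0.75, limma adjusted p = 0.0052). NRG2, a neuregulin, was at 1.09 ± 0.102 and 0.457 ± 0.021 FPKM (SD, n = 3 each; log2 fold change 1.09, limma adjusted p = 1.1e-05). NRG4, a ligand of ERBB4, was at 1.76 and 1.75 FPKM on average (log2 fold change 0.01, limma adjusted p = 0.90). Like ERBB4, NRG3 was too low to be tested, at 0.01, 0 and 0.01 FPKM in 231-BR cells and 0 in all 3 MDA-MB-231 libraries.

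EREG, AREG, BTC and EPGN are neighbors on chromosome 4, beside the genes of the CXC chemokines. RefSeq lists 26 genes from CXCL8 to BTC, of which 10 were in the table and 9 were tested. At the CXCL8 end the genes were lower in 231-BR cells. CXCL8 (interleukin 8), which attracts neutrophils, had 4, 4.95 and 4.85 FPKM in 231-BR cells and 68.29, 66.98 and 61.25 FPKM in MDA-MB-231 cells (log2 fold change -3.81, SE 0.076, limma adjusted p = 6.8e-11). CXCL1, a chemokine of the same receptor, had 3.24, 3.26 and 3.93 FPKM against 106.96, 102.63 and 106.09 FPKM (log2 fold change -4.89, SE 0.066, limma adjusted p = 7.8e-12). CXCL3 and CXCL2, of the same group, had log2 fold changes of -3.30 and -2.65 (limma adjusted p = 1.7e-07 and 7.3e-09). All 4 tested chemokine genes were thus lower in every 231-BR library. CXCL5, the other chemokine gene of the table in this stretch, was too low to be tested. It was listed at 0 in the 231-BR libraries and at 0.02, 0.02 and 0.05 FPKM in the MDA-MB-231 libraries. CXCL8 and CXCL1 were among the hub genes that the study chose from these libraries.

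In the middle of this stretch, MTHFD2L, an enzyme of mitochondrial folate metabolism, had 6.14, 6.36 and 6.65 FPKM in 231-BR cells and 6.61, 7.14 and 6.51 FPKM in MDA-MB-231 cells. The groups overlapped (log2 fold change -0.08, limma adjusted p = 0.21). EPGN (epigen), the next gene of the table, had 0.09, 0.16 and 0.17 FPKM against 0.12, 0.10 and 0.11 FPKM and did not pass the test (log2 fold change 0.18, limma adjusted p = 0.45). EREG, AREG and BTC followed in that order, with log2 fold changes of 6.31, 2.44 and 1.52. The stretch thus ran from lower to higher genes within 1 cluster.

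**Figure D4:**
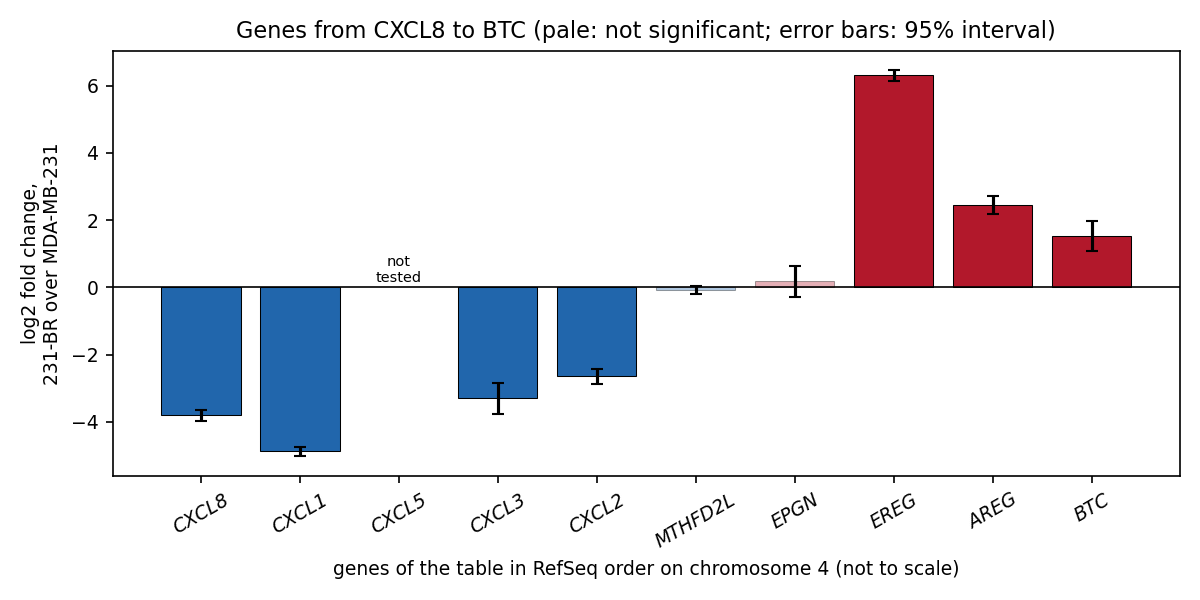
Log2 fold change, with its 95% confidence interval, of the genes of the table from CXCL8 to BTC in RefSeq order on chromosome 4. The 4 tested chemokine genes lie between -4.89 and -2.65, MTHFD2L and EPGN (pale) were not significant, and EREG, AREG and BTC lie between 1.52 and 6.31.

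The 40 nearest tested genes with a mean of at least 1 FPKM, 20 on either side, give the surroundings of each family gene. Around EREG, AREG and BTC, which share most of these neighbors, the median log2 fold change was 0.45, and none of the 40 neighbors of EREG had a higher value than EREG. Around EGFR on chromosome 7 the median was 0.08, and 2 of 40 neighbors were above EGFR. Around HBEGF on chromosome 5 the median was -0.24, and 1 of 40 was below HBEGF. For TGFA on chromosome 2 the median was -0.007 and 1 of 40 was below TGFA. Of the 40 neighbors of AREG 2 were above it, and of those of BTC 4. The surroundings of ERBB2 on chromosome 17 had a median of 0.22 with 4 of 40 above it. Those of ERBB3 on chromosome 12 had a median of -0.21 with 1 of 40 above it. The values of EGFR, EREG, AREG, HBEGF, TGFA and ERBB3 thus stood near the edge of those around them, a position that follows from the size of their log2 fold changes. NRG1 on chromosome 8 had 16 of 40 above it, with a median of 0.04. ERRFI1 on chromosome 1, with a log2 fold change of 0.24, lay in the middle of its neighbors, whose median was also 0.24.

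Other genes of the pathway were listed by role, 70 in all with the 6 remaining family genes. Of the 67 that were tested, 31 were significantly higher in 231-BR cells, 20 were significantly lower and 16 did not pass the test. With median-of-ratios scaling 29 were higher and 26 lower, and with quantile normalization 28 and 27, so most of the excess of higher genes depended on the scaling. Of the tested genes 76.1% were significant, against 77.28% of all genes tested, of which 44.4% were higher and 32.9% lower. The median log2 fold change of the lists was 0.06, against 0.08. By the criteria for DEGs, 7 genes were higher and 2 lower, which together is 13.4% of the tested genes of the lists, against 6.45% of all genes tested. With median-of-ratios scaling, quantile normalization or a pseudocount of 1, 6 were higher DEGs and 2 lower.

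Of the 6 genes for the release of ligands, 2 were significantly higher, 3 were significantly lower and 1 did not pass the test, with a median log2 fold change of -0.12. The significant genes were 83.3% of this list, against 77.28% of all genes tested, where 44.4% were higher and 32.9% lower. ADAM17, the main protease that frees TGFA, AREG, HBEGF and EREG, was lower in 231-BR cells, at 12.1 against 17.6 FPKM (log2 fold change -0.54, SE 0.041, limma adjusted p = 9.2e-07). RHBDF1, an inactive rhomboid protein that helps ADAM17 to mature, was higher, at 7.53 against 5.62 FPKM (log2 fold change 0.41, SE 0.059, limma adjusted p = 9.7e-05). The protease RHBDL2 was also higher, at 0.240 FPKM on average in 231-BR cells, and was listed at 0 in all 3 MDA-MB-231 libraries. RHBDF2 and the protease ADAM10 were lower, with log2 fold changes of -0.27 and -0.19. No gene of this list was a DEG.

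Of the 13 tested genes that restrain the receptors or turn them over, 6 were significantly higher, 3 were significantly lower and 4 did not pass the test, with a median log2 fold change of 0.002. The significant genes were 69.2% of the list, below the 77.28% of all genes, where 44.4% were higher and 32.9% lower. With median-of-ratios scaling 6 were higher and 5 lower, and with quantile normalization 5 and 6, so the direction of the excess depended on the scaling. UBASH3B, which counters the removal of EGFR by CBL ubiquitin ligases, was a DEG at 34.7 against 11.8 FPKM (log2 fold change 1.55, limma adjusted p = 1.6e-10). SH3KBP1, an adaptor that works with CBL in taking EGFR into the cell, was a DEG in the other direction, at 24.9 against 53.2 FPKM (log2 fold change -1.09, limma adjusted p = 2.2e-09). CBLB, a CBL ligase, and PTPRJ, a phosphatase that acts on EGFR, were both higher with a log2 fold change of 0.85. The other lower genes were SOCS5 at -0.35 and the deubiquitinase USP8 at -0.23. The list thus held genes with opposite roles and opposite directions.

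Of the 15 adaptors and RAS and ERK genes, 4 were significantly higher, 7 were significantly lower and 4 did not pass the test, with a median log2 fold change of -0.11 and no DEG. Of this list 73.3% were significant, against 77.28% of all genes, where 44.4% were higher and 32.9% lower. The docking protein GAB1 and MAPK3 (ERK1) were the highest, with log2 fold changes of 0.60 and 0.57 (limma adjusted p = 0.00029 and 2.5e-07). The phosphatase PTPN11 (SHP2) and the adaptor GRB2 were the other higher genes, at 0.40 and 0.15. The 7 lower genes lay between -0.52 and -0.15, among them the adaptor SHC1 at -0.36. Of the 13 genes of the PI3K arm and other effectors, 7 were significantly higher, 2 were significantly lower and 4 did not pass the test, with a median of 0.38. Again 69.2% were significant, against 77.28% of all genes. The lower genes were AKT1 at -0.18 and PLCG1 at -0.10. The 3 DEGs were all higher in 231-BR cells and were 23.1% of the list, where 4.68% of all genes tested were higher DEGs and 1.77% lower. STAT5A, a transcription factor activated by tyrosine kinases, was at 6.30 against 1.27 FPKM (log2 fold change 2.22, limma adjusted p = 3.5e-09). For the regulatory PI3K subunits PIK3R3 and PIK3R2 the log2 fold changes were 1.29 and 1.04, the latter close to the DEG limit of 1. For the paralog STAT5B and the catalytic subunit PIK3CA they were 0.66 and 0.64.

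Of the 16 genes that ERK signaling induces or that feed back on it, 10 were significantly higher, 5 were significantly lower and 1 did not pass the test, with a median log2 fold change of 0.41. The significant genes were 93.8% of the list, against 77.28% of all genes tested, where 44.4% were higher and 32.9% lower. SPRY1, an inhibitor of receptor signaling, was at 12.7 against 3.46 FPKM (log2 fold change 1.84, limma adjusted p = 1.9e-09). The ERK phosphatases DUSP4 and DUSP6 were at 91.5 against 38.3 FPKM and at 57.6 against 25.6 FPKM (log2 fold changes 1.26 and 1.17, limma adjusted p = 2.9e-10 and 1.2e-09). IER3, an immediate early gene, was lower, at 125.6 against 416.5 FPKM (log2 fold change -1.73, limma adjusted p = 3.8e-11). The early transcription factor EGR1 was at 2.60 against 0.660 FPKM (log2 fold change 1.84) and SPRED1, an inhibitor of RAS signaling, at 10.7 against 7.05 FPKM (log2 fold change 0.59). The other lower genes, the feedback inhibitors SPRY4 and SPRED2 and the transcription factors FOSL1 and ETV4, had log2 fold changes between -0.55 and -0.22. The list thus contained both higher and lower genes, and protein activity was not measured.

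**Figure D5:**
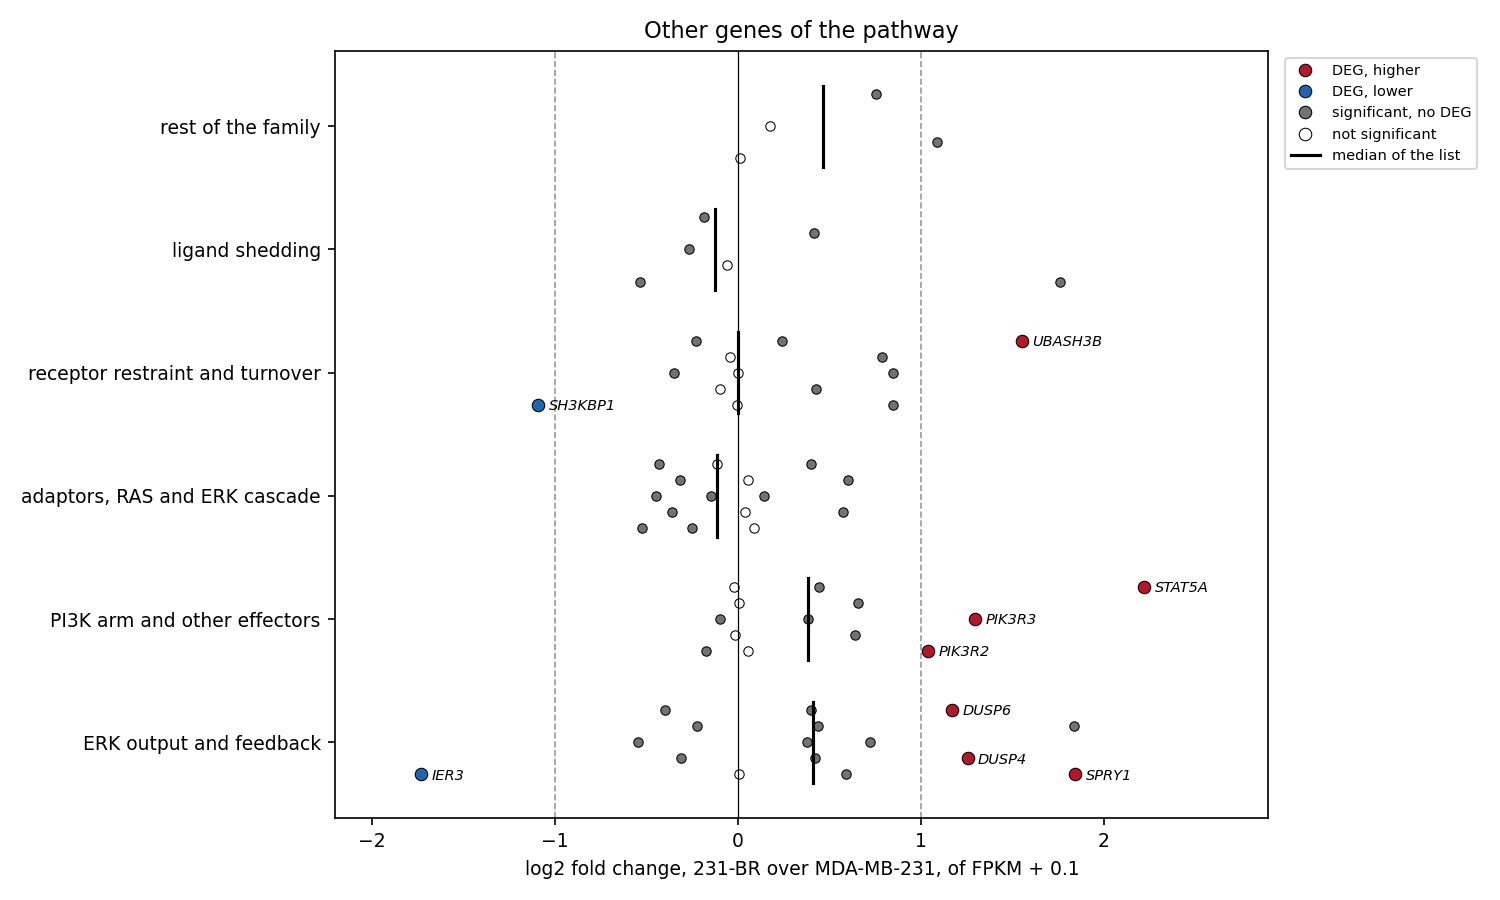
Log2 fold change of the 67 tested pathway genes, 1 point each, in 6 lists, with DEGs in red (higher) or blue (lower), other significant genes in gray, genes that were not significant in white and a bar at the median of the list. The medians of the PI3K arm and of the ERK output list lie at 0.38 and 0.41, and those of ligand shedding, receptor restraint and the RAS and ERK cascade at -0.12, 0.002 and -0.11.

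The 231-BR libraries summed to between 465020 and 472007 FPKM and the MDA-MB-231 libraries to between 486937 and 496420 FPKM. At 1 FPKM or more there were 11166 to 11178 genes in 231-BR libraries and 10785 to 10806 in MDA-MB-231 libraries. The part of this difference in the results was not tested. On the log2 scale, pairs of libraries within a line correlated at 0.9966 or more across genes and pairs from different lines at 0.9025 or less, where genes are not independent replicates. Both lines had high VIM, the mesenchymal intermediate filament, at 2553 and 2306 FPKM on average in 231-BR and MDA-MB-231 cells, and also the epithelial keratins KRT8, at 176 and 237 FPKM, and KRT18, at 273 and 352 FPKM. Both keratins were significantly lower in 231-BR cells (log2 fold changes -0.43 and -0.37, limma adjusted p = 3.0e-07 and 1.6e-06), and their part in the results was not tested. ESR1, PGR and CDH1 averaged under 1 FPKM in both, with CDH1 listed at 0.03 FPKM or less in every library. Markers of leukocytes (PTPRC), endothelium (PECAM1), astrocytes (GFAP) and fibroblasts (COL1A1) were under 1 FPKM in all libraries. PECAM1 averaged 0.420 FPKM in 231-BR and 0.183 FPKM in MDA-MB-231 cells, and COL1A1 0.517 and 0.930 FPKM, and their part in the results was not tested. In such bulk samples a change in the mix of cells and a change in the mRNA per cell cannot be told apart.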

How the data were processed

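The submitters purified poly(A) RNA and sequenced it on a BGISEQ-500 instrument with paired reads. Per the paper's methods and the submitters' processing notes, reads were filtered with SOAPnuke and aligned with HISAT2 2.0.4 to GRCh38.p12 and with Bowtie2 2.2.5 to a gene set. The authors deposited FPKM with 2 decimals for 17039 genes. The program that computed them is not given in the sources used here. No read counts were used, so the depth is unknown and no counting interval is given.

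Libraries were grouped by line from their titles, since in 4 of the 6 the number in the cell line field counts up to 232 or 233 with the replicate. The lines were compared in limma 3.58.1 (R 4.3.3) by lmFit and eBayes with a trend, on log2(FPKM + 0.1) of the 13465 genes whose mean reached 0.1 FPKM. Adjusted p-values are Benjamini-Hochberg values over these genes. An exact permutation test of 3 against 3 libraries cannot give a two-sided p below 0.1 and was not used. The fit was tested on simulated data. Gene order and promoters came from RefSeq on GRCh38.p14, and 16798 gene identifiers were found there. Another 25 symbols stood as dates and were restored by identifier. Figures were drawn with Python 3.11.15 and matplotlib 3.10.9.

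The members and gene lists were chosen with earlier results of these data known. The text names all 10 members, the rest of the family, and of each list the DEGs and the 2 others with the largest absolute log2 fold change at a mean of at least 1 FPKM. A few genes outside that rule, such as RHBDL2, PTPN11 and SPRY4, were named after their values were seen, to complete a count. Some single genes are not reported here and were left out of the lists. The alternatives were pseudocounts of 1 and 0.01, no filter, a filter at a mean of 1 FPKM, median-of-ratios scaling, quantile normalization, no trend, a replicate block, at least 1 FPKM in either line, and each library left out.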

Additional observations from a re-analysis of the deposited data

How the results depend on the processing

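Every one of the 10 genes kept its direction under every alternative that could be computed. A second member, TGFA, became a lower DEG, making 2, with a pseudocount of 0.01, median-of-ratios scaling and quantile normalization. With each library left out, the lower DEGs numbered 1 to 2. ERBB2 joined the higher DEGs without replicate 3 of 231-BR or of MDA-MB-231. The adjusted p of ERBB3 ran from 0.0018 to 0.058 and that of NRG1 from 0.0025 to 0.69. ERBB3 and BTC could not be tested with the filter at a mean of 1 FPKM. The titles do not say whether libraries with the same replicate number belong together. Over genes, deviations of same-numbered libraries correlated at 0.087, -0.040 and -0.106, and whether they shared a batch was not tested. With the replicate block NRG1 passed the threshold (log2 fold change 0.10, adjusted p = 0.038), and no other call of the 10 genes changed. The number of significant genes moved from 10406 to 10502.

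Over all genes the median log2 fold change was 0.08 as reported, -0.002 with median-of-ratios scaling and -0.06 with quantile normalization, a shift of 0.14. Higher genes made up 72.6% of all DEGs as reported, 63.4% with median-of-ratios scaling and 53.3% with quantile normalization. Relative to the median, ERRFI1 at 0.24 is therefore a small difference. The list of receptor restraint and turnover, with a median of 0.002, turned to -0.08 and -0.03 under these scalings. With quantile normalization NRG4 had a log2 fold change of -0.36 and passed the test, and EPGN had -0.16 and did not. With median-of-ratios scaling NRG4 was at -0.07. Depth is unknown, so low genes such as BTC and ERBB3 are the least certain.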
